A study of Homo sapiens with 9 samples.

Results

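SC10 is a subclone of the human melanoma line SK-MEL-5, an established cell line whose BRAF gene is mutated, and its 3 libraries were compared with the 6 libraries of its sister clones SC01 and SC07, so that 3 of the 9 libraries of the series are SC10. Each clone grew out of a single cell, isolated without drug by limiting dilution, and all 9 libraries came from untreated cells. The 3 clones had been chosen by their first response to PLX-4720, an inhibitor of mutated BRAF, but how each of them responded is not in the labels. The comparison therefore asked what marks SC10 out from both sisters before any drug. Each clone is 1 isolate of the line, so a difference of SC10 is a difference of that isolate. A batch that coincides with a clone cannot be told apart from it. Nothing in the labels ties the 3 libraries of a clone to separate cultures, so p-values reflect the spread among these libraries alone, which may be technical.

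Melanoma cells descend from melanocytes, pigment cells that arise from the neural crest. MITF, the transcription factor that governs the lineage, drives genes of melanin synthesis and of the melanosome, the organelle that holds the pigment. Melanoma cells can shift between a pigmented state and states that resemble the neural crest or are more invasive, and they keep many receptors, ion channels and guidance molecules of nerve and glia from this origin. Clones of a single line can differ in such states as well as in the number of copies of whole chromosomes.

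Raw read counts summed to between 30224066 and 39454087 per library, and 18009 genes passed the filter on low counts. At this depth 3 counts in a library are worth 0.0773 to 0.0948 CPM (read counts scaled by TMM to a common library size), the unit used here throughout. The first principal component, with 63.9% of the variance, set SC01 (-87.6 to -86.2) apart from SC07 (40.7 to 42.3) and SC10 (44.9 to 45.8). SC10 thus lay beside SC07 on the main axis of the series. The second principal component, with 21.9% of the variance, separated SC10 from SC07. On the third, with 2.69%, SC10 replicate 3 stood at -27.4 against 12.7 and 15.4 for replicates 1 and 2. Gene calls, list counts in SC10 alone and chromosome medians below were checked without it. Windows along chromosomes, groups of neighbouring genes and promoter shares were not. Of the 8 melanocyte markers, 7 passed the filter on low counts, with a summed level of 15283 to 15495 CPM in the SC10 libraries, between that of SC01 (10875 to 11532) and that of SC07 (24452 to 24962). SOX10, another regulator of the lineage, had 0 counts in each of the 9 libraries, and no direction can be read for it. The annotation and strand setting behind the counts are not given, so 0 counts cannot be read as absence of the transcript. In bulk RNA, fewer cells with a transcript and less of it in each cell cannot be told apart. Of the immune markers only PTPRC passed the filter on low counts, and the summed immune markers reached 1.57 CPM in SC10 at most. Of 8 fibroblast, 9 keratinocyte and 6 endothelial markers, 5, 5 and 3 passed that filter. Among the members of these lists, KRT5, KRT1, TP63, COL3A1, FAP, CDH5 and TEK had clone means under 0.1 CPM in all 3 clones. KDR, 1 of the 3 endothelial markers tested, was lowest in SC10 alone, a call lost against a minimum change of 1.5-fold. Summed keratinocyte markers were at 24.7 to 27.9 CPM in SC10, 25.4 to 26.2 in SC07 and 23.7 to 26.2 in SC01, nearly all of it KRT10, and of the 5 tested 2 were higher and 3 lower than the mean of the sisters. Summed endothelial markers were at 8.72 to 9.24 CPM in SC10, against 14.5 to 15.9 in SC07 and 23.5 to 24.6 in SC01, and summed fibroblast markers at 336 to 371 CPM, against 428 to 490 and 132 to 137, nearly all of it LUM, a matrix proteoglycan.

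SC10 differed from the mean of its sisters in more genes than not, and a smaller set of genes was highest or lowest in SC10 alone. Tested with edgeR (quasi-likelihood, adjusted p below 0.05), 5607 of the 18009 genes (31.1%) were higher and 4948 (27.5%) lower in SC10 than the mean of SC01 and SC07, 58.6% in all. That contrast also passes genes in which only 1 sister differs. Requiring the same direction past the threshold against each sister as well left 2684 genes (14.9%) highest and 2290 (12.7%) lowest in SC10 alone, 27.6% of all genes tested. The remaining 2923 higher and 2658 lower genes did not pass against both sisters. The distance of SC10 to the nearer sister was small in most: its median was 0.43 on the log2 scale for the genes highest in SC10 and -0.32 for those lowest. At least 2-fold from the nearer sister were 499 genes (2.77%) highest and 223 (1.24%) lowest, 4.01% together. In 357 of the former and 195 of the latter (1.98% and 1.08% of the genes tested, 3.07% together) the sisters were in addition closer to each other than SC10 was to either. Many of these genes were weakly expressed, with 328 of the 499 and 176 of the 223 under 5 CPM in every clone.

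Leaving out SC10 replicate 3 kept the call for 2463 of the 2684 genes highest (91.8%) and 2011 of the 2290 lowest (87.8%), and for 472 of the 499 (94.6%) and 188 of the 223 (84.3%) at 2-fold or more. The SC10 libraries did not overlap the 6 others in 2973 genes (16.5%) upward and 2582 (14.3%) downward, 30.8% together. When SC01 and SC07 were fitted as 1 group of 6, 1895 genes were higher and 1776 lower, and against a minimum change of 1.5-fold 1526 and 667. At the edge of the 2-fold limit, TM2D2 and CD22 were just inside (both at 1.0), and EPHB2 (0.999) and JAG2 (0.975) just outside. On the lower side CFAP44 and ZNF850 (both -1.01) were inside, and SLC5A3 and TIAM1 (both -0.992) outside.

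**Figure D1:**
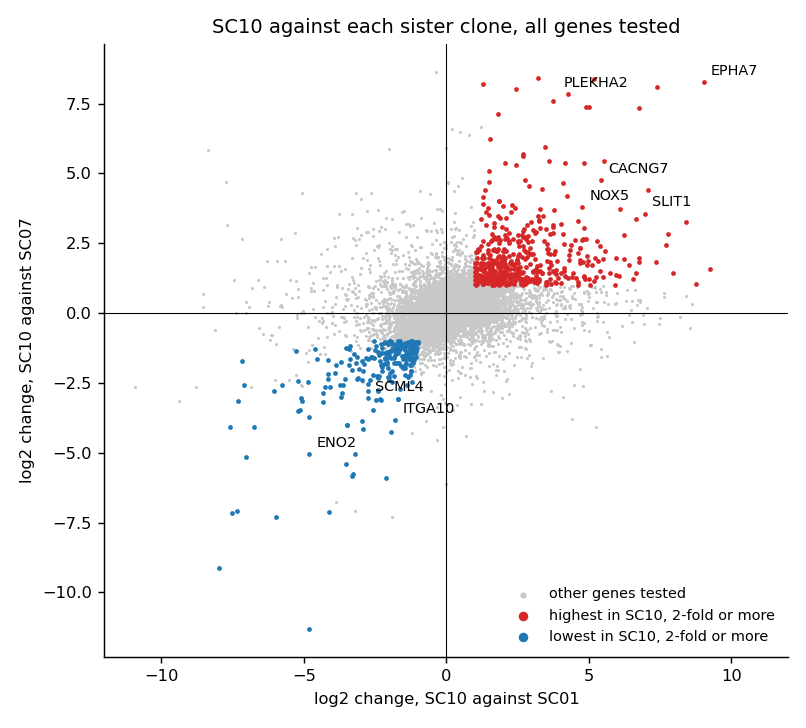
Each point is 1 of 18009 genes, with its log2 change in SC10 against SC01 on the horizontal axis and against SC07 on the vertical axis. The 499 genes highest in SC10 alone by 2-fold or more are red and the 223 lowest are blue, and EPHA7, PLEKHA2 and CACNG7 lie far from both sisters at the upper right, ENO2 at the lower left.

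EPHA7, a receptor for ephrins that steers growing axons and migrating neural crest cells, was the gene furthest above both sisters among coding genes of at least 5 CPM. Its libraries measured 29.6, 26.8 and 26.5 CPM in SC10, against 0, 0 and 0.150 in SC01 and 0.0609, 0.103 and 0.0896 in SC07. The transcript was thus near the floor in all 6 sister libraries and at a moderate level in all 3 of SC10. The log2 change was 9.03 ± 0.24 (SE) against SC01 and 8.28 ± 0.22 against SC07 (largest adjusted p of the 3 tests = 9.13e-20, edgeR), and standard errors are too small where a clone holds only a few counts. The gene spans chr6:93240020-93419547 on GRCh38, and no exon base of it overlaps another gene in GENCODE 29.

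The promoters of 3 genes are shown because these genes lay far from both sisters and differ in a plain sequence feature, the CG dinucleotides that can be methylated, set in capitals. Each is 300 bases from RefSeq on GRCh38.p14, from 250 bases before to 50 after the gene's start, on the gene's own strand. EPHA7 (chr6:93419510-93419809, minus strand) holds 24 CG at 68.3% GC, NOX5 (chr15:69014445-69014744, plus strand) holds 0 at 48% GC, and ENO2 (chr12:6914330-6914629, plus strand) holds 38 at 75% GC. The RefSeq starts of NOX5 and ENO2 lie inside the spans that GENCODE 29 gives them, chr15:68930525-69062743 and chr12:6913745-6923698, so other starts of these genes are not covered.
EPHA7: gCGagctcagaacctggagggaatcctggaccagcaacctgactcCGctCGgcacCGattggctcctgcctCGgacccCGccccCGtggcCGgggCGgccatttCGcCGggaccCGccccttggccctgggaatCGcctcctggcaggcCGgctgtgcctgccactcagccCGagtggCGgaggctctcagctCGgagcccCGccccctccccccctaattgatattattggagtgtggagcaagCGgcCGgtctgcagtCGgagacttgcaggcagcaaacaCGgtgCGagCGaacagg
NOX5: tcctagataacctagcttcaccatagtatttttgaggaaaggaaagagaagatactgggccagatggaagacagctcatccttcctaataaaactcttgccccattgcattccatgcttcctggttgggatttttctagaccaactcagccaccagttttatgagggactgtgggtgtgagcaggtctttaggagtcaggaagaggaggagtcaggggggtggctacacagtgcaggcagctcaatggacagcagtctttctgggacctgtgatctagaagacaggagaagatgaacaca
ENO2: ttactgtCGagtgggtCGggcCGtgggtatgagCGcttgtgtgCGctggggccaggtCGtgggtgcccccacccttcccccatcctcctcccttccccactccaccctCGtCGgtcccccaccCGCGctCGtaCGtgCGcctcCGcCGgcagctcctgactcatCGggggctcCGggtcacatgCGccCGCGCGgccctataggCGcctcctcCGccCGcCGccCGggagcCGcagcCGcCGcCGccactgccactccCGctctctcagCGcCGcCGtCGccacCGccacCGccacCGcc
Of the 157 coding genes lowest in SC10 alone by 2-fold or more, 131 matched a promoter, and 52 of these (39.7%) were rich in CG, with at least 50% GC and an observed to expected CG ratio of at least 0.6. The share among all coding genes tested with a promoter was 78.4%, or 8616 of 10991. The highest clone mean had a median of 2.27 CPM in the former set and 31.5 CPM in the latter, and the part of expression level in the difference was not tested. For the genes highest in SC10 alone by 2-fold or more only 70.9% matched a promoter, so the check is void for them.

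CACNG7, a membrane protein that accompanies glutamate receptors and calcium channels, measured 20.6, 17.9 and 18.6 CPM in SC10, against 0.494, 0.474 and 0.359 in SC01 and 0.70, 0.619 and 0.776 in SC07. Every SC10 library was far above every sister library, 4.77 ± 0.14 above SC07 and 5.41 ± 0.15 above SC01 on the log2 scale (largest adjusted p = 1.63e-20, edgeR). PLEKHA2, an adaptor that binds membrane phosphoinositides, measured 9.29, 8.81 and 8.51 CPM in SC10. It was between 0.0316 and 0.0599 CPM in SC01, and the 3 SC07 libraries held 3 counts in all, for a count ratio of 311 (exact 95% counting interval 106 to 1512). SLC5A4, a glucose-sensing member of the sodium-glucose transporter family, reached 67.9, 66.8 and 63.1 CPM in SC10, with 4.04 to 4.15 CPM in SC01 and 7.08 to 7.46 in SC07. Its 3 libraries in each clone lay close together, and SC10 was 3.19 ± 0.07 above SC07 (largest adjusted p = 1.14e-23, edgeR).

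Of the 15 coding genes that the rule placed furthest above both sisters, NOX5, SLIT1, ITGB3 and TGFB2 are described with their groups. The 7 others were GLB1L3, a galactosidase-like protein, RIMBP2, a scaffold of presynaptic release sites, SCIN, an actin-severing protein of the gelsolin family, TGM2, a crosslinking transglutaminase, SPINK1, a secreted trypsin inhibitor, PPP2R2C, a regulatory subunit of protein phosphatase 2A, and LUZP4, an mRNA export adaptor. The distance of these 7 to the nearer sister ran from 2.58 for LUZP4 to 3.70 for GLB1L3 on the log2 scale. GLB1L3 was nearly equal in the sisters, at 1.17 ± 0.28 CPM in SC01 (mean ± SD, n = 3 here and below) and 1.22 to 1.28 in SC07, and stood at 16.2 ± 0.20 in SC10. SCIN stood at 35.7 ± 1.3 CPM in SC10, against 4.58 ± 0.47 in SC01 and 3.67 ± 0.60 in SC07. TGM2 stood at 14.7 ± 0.76 CPM in SC10, and at 2.20 ± 0.51 and 1.79 ± 0.35 in the sisters. SPINK1 measured 6.40, 6.82 and 7.83 CPM in the SC10 libraries, and between 0.792 and 1.18 in all 6 others. Without SC10 replicate 3 each of these genes kept its call, as did all 36 genes named by distance under every alternative applied to them. The fit with the sisters as 1 group of 6 has no test against each sister. It was therefore not applied to genes called in SC10 alone.

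**Figure D2:**
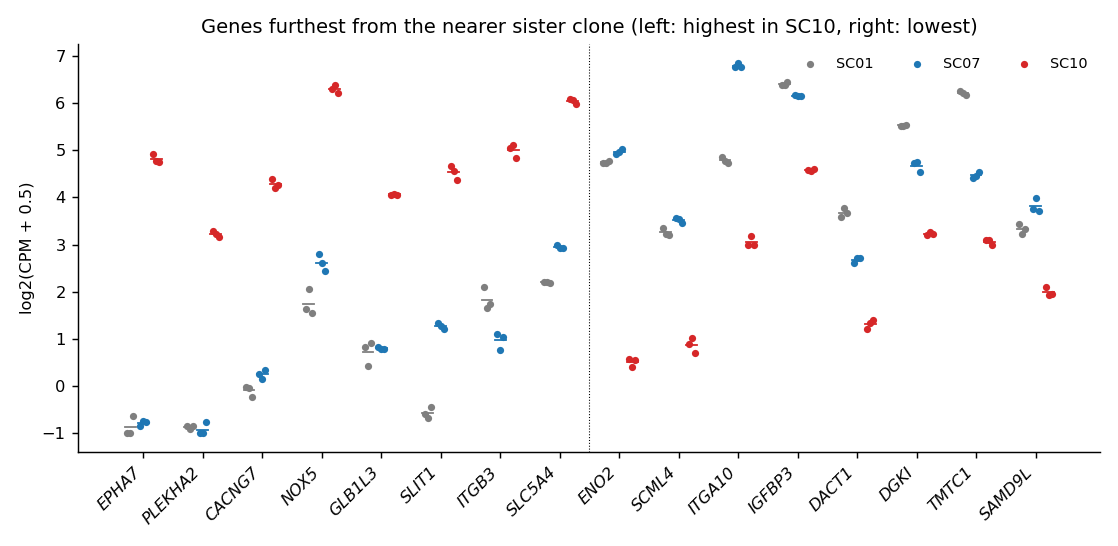
Every library of the 8 coding genes furthest above and the 8 furthest below the nearer sister, as log2(CPM + 0.5) on the vertical axis, with short lines at the clone means. In each of the 16 genes the 3 SC10 points lie apart from the 6 sister points, and for EPHA7 and PLEKHA2 the sister points lie at the bottom of the scale.

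Below both sisters, ENO2 stood furthest. ENO2 encodes the neuronal form of the glycolytic enzyme enolase. It measured 25.8, 26.1 and 26.9 CPM in SC01, 29.7, 30.6 and 32.2 in SC07, and 0.981, 0.831 and 0.975 in SC10. The sisters were close to each other while SC10 was lower by 4.81 ± 0.10 against SC01 and 5.04 ± 0.10 against SC07 on the log2 scale (largest adjusted p = 7.55e-24, edgeR). SCML4, a protein related to the Polycomb group, measured 1.36, 1.54 and 1.12 CPM in SC10, 8.68 to 9.75 in SC01 and 10.4 to 11.4 in SC07. IGFBP3, a secreted binder of insulin-like growth factors, measured 23.4, 23.1 and 23.7 CPM in SC10, 83.1 to 86.5 in SC01 and 70.0 to 71.0 in SC07. For both, no SC10 library came near a sister library, with distances of -2.76 and -1.59 to the nearer sister (largest adjusted p = 1.3e-16 and 7.1e-20, edgeR).

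The remaining coding genes furthest below were DACT1, which modulates WNT signalling, DGKI, a diacylglycerol kinase, TMTC1, an endoplasmic reticulum mannosyltransferase, SAMD9L, an interferon-induced protein, ETS2, a transcription factor downstream of ERK signalling, COL9A1, a collagen chain, the gene CPM, which encodes carboxypeptidase M, PLXNC1, a semaphorin receptor, CDK14, a cyclin-dependent kinase, C1S, a complement protease, MAOA, a monoamine oxidase, and ITGA10, an integrin subunit. Their distances ran from -1.18 for MAOA to -1.80 for ITGA10. ETS2 measured 6.98, 6.35 and 7.0 CPM in SC10, 21.8 to 22.8 in SC01 and 17.3 to 19.8 in SC07. For TMTC1 and ITGA10 the sisters themselves lay further apart than SC10 from the nearer one: TMTC1 averaged 74.0 ± 2.4 CPM for SC01, 21.7 ± 0.89 in SC07 and 7.88 ± 0.40 in SC10.

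Guidance genes, whose ligands and receptors direct axons and migrating cells, had 58 tested members, of which 18 were highest in SC10 alone (31.0%, against 14.9% of all genes tested) and 8 lowest (13.8%, against 12.7%), with 8 and 3 at 2-fold or more. The median of the list against the mean of the sisters was 0.07, so that the members moved in both directions. Among ligands, SLIT1 measured 24.8, 23.1 and 20.1 CPM in SC10, 0.126 to 0.239 in SC01 and 1.82 to 2.04 in SC07. Its relative SLIT3 went the other way, at 0.0817, 0.0593 and 0.177 CPM in SC10, 1.10 to 1.42 in SC01 and 1.37 to 2.22 in SC07, a distance of -3.49 ± 0.39 at very low levels. NTN4, a netrin, was also lowest, at 0.0972 ± 0.096 CPM in SC10 against 0.454 ± 0.19 in SC07 and 1.76 ± 0.17 in SC01. Among receptors, EPHA7 was highest and the plexin PLXNC1 was lowest: 43.7, 42.8 and 34.8 CPM in SC10, 99.5 to 105 in SC01 and 197 to 203 in SC07. Replicate 3 was the lowest SC10 library for PLXNC1, with a distance of -1.35 to SC01 over all libraries.

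In the lists of calcium handling and nerve signalling, too, more genes were highest than lowest. Of 38 calcium channels, pumps and exchangers, 12 were highest in SC10 alone (31.6%, against 14.9% of all genes tested). Another 3 were lowest (7.89%, against 12.7%). RYR1, a calcium release channel of the endoplasmic reticulum, measured 2.62, 2.46 and 2.19 CPM in SC10, 0.299 to 0.442 in SC01 and 0.448 to 0.548 in SC07, while its relative RYR2 was lowest in SC10 (0.373 ± 0.093 CPM, against 1.16 ± 0.22 in SC07 and 1.45 ± 0.25 in SC01). ATP2B2, a calcium pump of the plasma membrane, measured 20.1 ± 1.8 CPM in SC10, 6.76 ± 1.4 in SC07 and 0.0297 ± 0.0021 in SC01, where it had 1 count in each library. SLC8A1, a sodium-calcium exchanger, had the same order, with 9.50 ± 0.63, 3.78 ± 0.35 and 0.139 ± 0.098 CPM. For these last genes SC10 was at the top of a series in which SC07 was also far above SC01.

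Of 32 neurotransmitter receptors, 9 were highest (28.1%, against 14.9% of all genes tested) and 1 lowest (3.12%, against 12.7%). The median was 0.35 against the mean of the sisters. GABBR2, a subunit of the metabotropic GABA receptor, measured 18.3, 19.0 and 17.2 CPM in SC10, 2.58 to 3.92 in SC01 and 4.29 to 5.46 in SC07 (distance 1.88 ± 0.11). GRIN1, the obligate subunit of NMDA glutamate receptors, stood at 3.68 ± 0.093 CPM, against 0.990 ± 0.20 in SC07 and 0.654 ± 0.16 in SC01. The GABA receptor subunits GABRD (1.21 ± 0.11 CPM) and GABRG3 (7.97 ± 0.51 CPM) were highest too. Of 35 potassium channels, 10 were highest (28.6%) and 2 lowest (5.71%), or 11 and 0 without SC10 replicate 3. KCNH1, a voltage-gated channel whose exons overlap another gene over 53% of their bases, measured 12.2 ± 2.3 CPM against 3.81 ± 0.48 in SC01 and 3.57 ± 0.47 in SC07.

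Few integrin, laminin and matrix genes were highest or lowest in SC10 alone. Of 32 integrins and laminins, 3 were highest (9.38%, against 14.9% of all genes tested) and 2 lowest (6.25%, against 12.7%). Without SC10 replicate 3 these counts were 5 and 2. Of 39 collagens and matrix proteins, 3 were highest (7.69%) and 2 lowest (5.13%), or 1 and 2 when scaled by library totals. ITGB3, the beta 3 integrin subunit that melanoma cells pair with alpha V to bind matrix, measured 32.4, 34.3 and 27.9 CPM in SC10, 2.65 to 3.79 in SC01 and 1.21 to 1.64 in SC07. Its distance was 3.34 ± 0.12 (largest adjusted p = 9.27e-19, edgeR), and 51.6% of its exon bases overlap another annotated gene. ITGA10, a collagen-binding subunit, was opposite: 7.41, 8.57 and 7.44 CPM in SC10, 26.2 to 28.3 in SC01 and 108 to 116 in SC07. VCAN, a matrix proteoglycan, measured 380, 383 and 276 CPM in SC10 and 236 to 273 in SC01, so that replicate 3 stood close to the highest SC01 library. Its distance was 0.46 (largest adjusted p = 0.0184, edgeR) and 0.60 without replicate 3, and the call was lost without SC10 replicate 1 or 2, without SC01 replicate 2 or 3, and when scaled by totals (largest adjusted p of these = 0.0606). Of 24 cadherins, protocadherins and catenins, 3 were highest (12.5%) and 4 lowest (16.7%), among them CDH12 (5.44 ± 0.30 CPM in SC10, 2.04 ± 0.32 in SC07 and 0.0965 ± 0.067 in SC01) and PCDH9 (0.749 ± 0.27, 2.65 ± 0.13 and 1.70 ± 0.13 CPM).

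Genes of WNT, TGF-beta and BMP signalling, from ligands to targets, moved in both directions. Of 58 tested, 16 were highest (27.6%, against 14.9% of all genes tested) and 12 lowest (20.7%, against 12.7%). TGFB2, a ligand of the TGF-beta receptors, measured 16.3, 15.1 and 17.0 CPM in SC10, 1.01 to 1.56 in SC01 and 1.73 to 2.19 in SC07, a distance of 3.09 ± 0.13 (largest adjusted p = 5.09e-17, edgeR), and another gene covers 26.6% of its exon bases. The ligands WNT9A (0.702 ± 0.062 CPM in SC10, against 0.0507 ± 0.038 and 0.0748 ± 0.039) and BMP6 (1.74 ± 0.14, against 0.471 ± 0.044 and 0.638 ± 0.10) were highest as well. ID1, a direct target of BMP signalling, was lowest at 1.27 ± 0.48 CPM, against 2.55 ± 0.26 in SC07 and 7.30 ± 0.63 in SC01. DACT1, the WNT modulator, measured 1.83, 2.02 and 2.16 CPM in SC10, 5.57 to 6.06 in SC07 and 11.6 to 13.1 in SC01. DACT1 and ID1 thus lay below both sisters while the 3 named ligands lay above both.

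NOX5, an NADPH oxidase that is switched on by calcium and makes superoxide, measured 78.4, 82.8 and 73.6 CPM in SC10, 2.42 to 3.67 in SC01 and 4.93 to 6.52 in SC07. Every SC10 library lay far above every sister library, and the distance was 3.79 ± 0.09 (largest adjusted p = 4.66e-18, edgeR), or 3.84 without replicate 3. Of 8 NADPH oxidases and partners tested, 2 were highest (25%, against 14.9% of all genes tested) and 1 lowest (12.5%, against 12.7%). CYBA, the membrane subunit of other NADPH oxidases, measured 20, 19.4 and 20.7 CPM in SC10, 11.1 to 13.0 in SC07 and 0.419 to 0.494 in SC01. RAC1, a small GTPase that activates some of these enzymes, was lowest at 282 ± 9.0 CPM, against 338 ± 13 and 449.9 ± 15. Of 29 genes of glutathione, NRF2 and ferroptosis, 4 were highest and 5 lowest, shares of 13.8% and 17.2% near those of all genes. TXNRD1, which reduces thioredoxin, was lowest at 262, 268 and 257 CPM in SC10, against 331 to 339 in SC07 and 353 to 361 in SC01. AIFM2, a suppressor of ferroptosis, was highest at 103 ± 3.0 CPM, against 82.5 ± 3.8 in SC07 and 29.6 ± 0.78 in SC01.

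Pigment genes as a list did not lean to one side in SC10. Of 25 pigment genes, 4 were highest and 5 lowest in SC10 alone (16% and 20%, against 14.9% and 12.7% of all genes tested). At 2-fold or more there were 0, and the median was 0.02 against the mean of the sisters. MITF measured 554, 567 and 528 CPM in SC10, 485 to 511 in SC07 and 448 to 452 in SC01, a distance of 0.14 ± 0.04 (largest adjusted p = 0.00625, edgeR). The clones did not overlap in MITF, and without replicate 3 the distance was 0.18. MLANA, a melanosome protein, was highest (1514 ± 69 CPM, against 1072 ± 14 and 604 ± 21), as was MYO5A, the motor that carries melanosomes (588, 602 and 468 CPM, against 363 to 372 in SC07). TYRP1, an enzyme of melanin synthesis, was lowest at 721, 693 and 691 CPM, against 1205 to 1217 in SC07 and 2394 ± 66 in SC01. MC1R, the melanocortin receptor, was lowest at 13.7 ± 0.66 CPM, against 18.5 ± 0.61 and 21.2 ± 0.51, and 44.5% of its exon bases lie under another gene.

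Of 24 neural crest and invasive melanoma genes, 16 were lower than the mean of the sisters (66.7%, against 27.5% of all genes tested). Another 3 were higher (12.5%, against 31.1%). But only 2 were lowest and 2 highest in SC10 alone (8.33% each, against 12.7% and 14.9%). The list's median was -1.41 against SC01 and 0.42 against SC07. SOX9, a neural crest transcription factor, measured 0.327, 0.356 and 0.177 CPM in SC10, 1.31 to 1.73 in SC07 and 1.84 to 2.75 in SC01. TWIST1, a mesenchymal transcription factor, was lowest at 2.87 ± 0.47 CPM, against 5.80 ± 0.25 and 5.68 ± 0.11. NGFR, the low-affinity neurotrophin receptor, was highest at 1.58, 2.05 and 1.62 CPM, against 0.659 to 0.822 in SC01 and 0.426 to 0.747 in SC07 (distance 1.24 ± 0.26, largest adjusted p = 0.00013, edgeR), with 27.1% of its exon bases overlapped. RXRG, a retinoid receptor, was highest by 0.14 and lost its call with library totals and without SC01 replicate 1 (largest adjusted p = 0.598 and 0.0940). AXL lay between 0.0948 and 0.413 CPM in all 9 libraries and passed in neither pair (largest adjusted p = 0.499, edgeR).

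Growth factor receptors as a list stood near the shares of all genes tested. Of 28 receptor tyrosine kinases, 4 were highest and 4 lowest (14.3% each, against 14.9% and 12.7% of all genes), or 3 and 6 with library totals only. ERBB3, a receptor of neuregulins, measured 234, 230 and 210 CPM in SC10, 456 to 459 in SC07 and 450 to 478 in SC01. The sisters were alike and SC10 was lower by 1.03 ± 0.04 (largest adjusted p = 7.67e-17, edgeR), or by 0.97 without replicate 3. NTRK2, a neurotrophin receptor, was lowest at 0.213 ± 0.080 CPM, against 0.80 ± 0.14 and 0.910 ± 0.29. NTRK3 was called highest at 0.444 ± 0.18 CPM, and the call was lost without replicate 3 (largest adjusted p = 0.126, edgeR) and without SC07 replicate 1 (0.0698). EGFR measured 12.8, 13.7 and 10 CPM in SC10 against 10.3 to 10.7 in SC07 and 31.6 to 32.8 in SC01. SC10 passed as above SC07 by 0.22 ± 0.09 (adjusted p = 0.0444, edgeR), but its replicate 3 lay below every SC07 library. BRAF measured 65.6, 64.4 and 54.2 CPM in SC10 and 54.9 to 61.5 in SC07. It did not pass against SC07 (adjusted p = 0.364, edgeR), but it did without replicate 3 (adjusted p = 0.00882), which was the lowest SC10 library. Of 28 genes of ERK feedback and output, 7 were highest and 6 lowest (25% and 21.4%, against 14.9% and 12.7% of all genes tested), or 5 and 7 with library totals only, including FOS (49.9 ± 2.0 CPM, against 34.7 ± 1.1 and 26.0 ± 2.2) and SPRED1, an inhibitor of RAS signalling (38.5 ± 2.4, against 52.0 ± 0.66 and 75.8 ± 1.4). KDM5B, a histone demethylase, was highest by only 0.12 (largest adjusted p = 0.0458, edgeR) and lost that call under 11 alternatives, among them library totals, DESeq2, limma-voom and the removal of SC10 replicate 1 or 2 or of SC07 replicate 2 or 3 (largest adjusted p between 0.0531 and 0.183, and 1 against a minimum change of 1.5-fold).

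**Figure D3:**
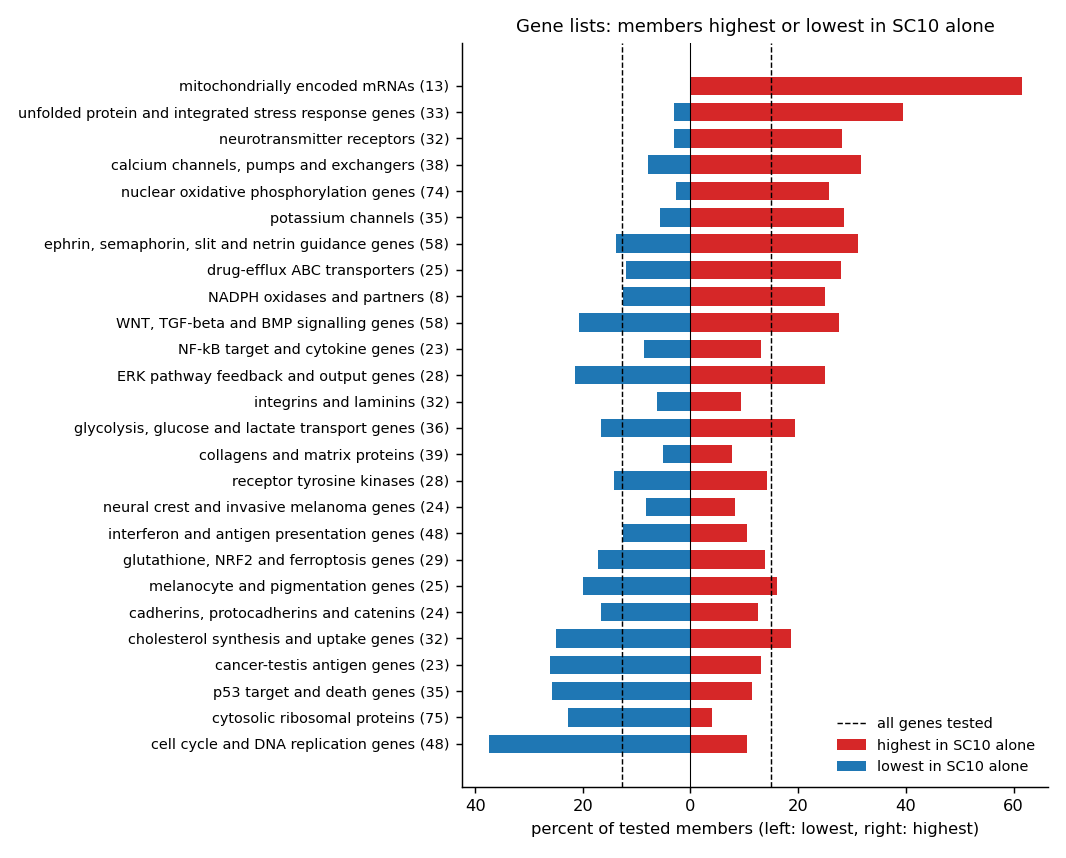
Bars give the percent of tested members of each gene list that were highest (right, red) or lowest (left, blue) in SC10 alone, with the number of tested members in brackets and dashed lines at the shares of all genes tested, 14.9% and 12.7%; marker and RNA quality lists are not drawn. Mitochondrially encoded mRNAs and stress response genes extend furthest to the right among the lists drawn, and cell cycle genes furthest to the left.

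Transcripts of oxidative phosphorylation were mostly higher in SC10 than the mean of its sisters, with the larger distance to SC01. Of 74 tested nuclear genes of oxidative phosphorylation, 53 were higher (71.6%, against 31.1% of all genes tested) and 6 lower (8.11%, against 27.5%) than the mean of the sisters. In SC10 alone 19 were highest (25.7%, against 14.9%) and 2 lowest (2.7%, against 12.7%), or 19 and 5 with library totals only. The median was 0.60 against SC01 and -0.07 against SC07. NDUFS4, a subunit of complex I, measured 41.0, 37.0 and 45.5 CPM in SC10, 26.1 to 27.8 in SC07 and 23.3 to 28.1 in SC01. ATP5F1C, a subunit of ATP synthase, was highest (197 ± 9.2 CPM, against 156 ± 2.0 and 99.8 ± 1.7), and ATP5MC2, another, was lowest (222 ± 19, against 285 ± 12 and 288 ± 3.7). Oxidative phosphorylation genes were higher in replicate 3 than in replicates 1 and 2 by a median of 0.16, and without it 18 were highest and 4 lowest. PPARGC1A, the coactivator that drives mitochondrial genes, measured 451, 456 and 393 CPM in SC10 and 461 to 473 in SC07, with no call against SC07 (adjusted p = 0.057, edgeR), and about 30 in SC01.

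Of the 13 mitochondrially encoded mRNAs, 12 were higher than the mean of the sisters (92.3%, against 31.1% of all genes tested). In SC10 alone 8 were highest (61.5%, against 14.9%) and 0 lowest (against 12.7%). MT-ATP6, a subunit of ATP synthase, measured 7672, 7755 and 7619 CPM in SC10, 6054 to 6155 in SC07 and 4963 to 5112 in SC01. Its distance was 0.33 ± 0.04 and 0.35 without replicate 3. NEAT1, a nuclear RNA, was called highest at 560.2 ± 36 CPM, but the call was lost with library totals, with a replicate block (largest adjusted p = 0.083, edgeR) and in 6 of the 9 removals of 1 library, SC10 replicate 3 among them (0.135). Summed nuclear and small structured RNAs were at 652 to 721 CPM in SC10, 491 to 639 in SC07 and 345 to 391 in SC01, and their part in the mitochondrial result was not tested. Of 36 genes of glycolysis and glucose transport, 7 were highest and 6 lowest (19.4% and 16.7%, against 14.9% and 12.7% of all genes tested). Outside chromosomes 10 to 12 these were 5 and 1 of 24, against 1989 and 1886 of all 15417 genes tested there. HK1, a hexokinase that starts glycolysis, was highest at 255, 245 and 250 CPM, against 148 to 159 in SC07 and 133 to 139 in SC01. The transporters SLC2A6 (22.9 ± 2.1 CPM, against 9.23 ± 1.0 and 8.27 ± 0.56) and SLC2A4 (4.58 ± 0.31, against 2.26 ± 0.14 and 0.404 ± 0.013) were highest too, opposite to ENO2.

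Stress genes that ease the load of misfolded proteins, of the unfolded protein and integrated stress responses, leaned upward against both sisters. Of 33 tested, 13 were highest (39.4%, against 14.9% of all genes tested) and 1 lowest (3.03%, against 12.7%) in SC10 alone, all by less than 2-fold. The median was 0.35 against SC01 and 0.19 against SC07. HSPA5, the main chaperone of the endoplasmic reticulum, measured 1222, 1207 and 1278 CPM in SC10, 862 to 879 in SC07 and 667 to 684 in SC01 (distance 0.50 ± 0.04, largest adjusted p = 2.81e-11, edgeR). MANF, a secreted protein of the same response, measured 164, 172 and 193 CPM, 108 to 112 in SC07 and 66.1 to 67.7 in SC01. SDF2L1, a chaperone partner, and PHGDH, which starts serine synthesis, were highest at 91.2 ± 6.2 and 150.2 ± 6.3 CPM. The count was 12 and 1 without replicate 3, and 11 and 1 with library totals only.

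Cell cycle genes leaned the other way. Of 48 tested, 18 were lowest (37.5%, against 12.7% of all genes tested) and 5 highest (10.4%, against 14.9%) in SC10 alone, by less than 2-fold in all but 1. The medians were -0.16 against SC01 and -0.12 against SC07. FOXM1, a transcription factor of mitotic genes that is itself encoded on chromosome 12, measured 83.4, 83.4 and 76.9 CPM in SC10, 131 to 141 in SC07 and 140 to 143 in SC01. RRM2, which makes deoxynucleotides, was lowest at 129 ± 1.5 CPM, against 183 ± 4.1 and 187 ± 5.5, and TOP2A, a topoisomerase of dividing cells, at 231 ± 13, against 321 ± 6.4 and 345 ± 8.6. CCND2, encoding cyclin D2, was the exception above 2-fold, at 12.9 ± 0.66 CPM, against 5.54 ± 1.0 in SC07 and 1.83 ± 0.35 in SC01. Outside chromosomes 10 to 12, 14 of 38 members were lowest and 3 highest, against 1886 and 1989 of all 15417 genes tested there. Of 9 replication-dependent histones tested, 5 were lower (55.6%, against 27.5% of all genes tested) and 1 higher (11.1%, against 31.1%) than the mean of the sisters. In SC10 alone 1 of these histones was lowest (11.1%, against 12.7%), with list medians of -0.27 against SC01 and -0.39 against SC07. Their summed level was 110 to 126 CPM in SC10, overlapping SC01 (105 to 112) and below SC07 (150 to 161). Of 35 p53 target and death genes, 9 were lowest (25.7%) and 4 highest (11.4%): MDM2, the ligase that degrades p53, was lowest at 67.5 ± 2.0 CPM, against 96.3 ± 3.5 and 152 ± 5.3, and BBC3, a death activator, at 25.6 ± 1.1, against 36.7 ± 2.4 and 63.1 ± 5.3, while BCL2A1, a survival factor, was highest at 94.3 ± 9.1, against 63.7 ± 3.2 and 60.9 ± 2.0.

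The ribosomal protein list depended on 1 library. Of 75 genes, 17 were lowest (22.7%, against 12.7% of all genes tested) and 3 highest (4%, against 14.9%) in SC10 alone. But 47 were lowest without SC10 replicate 3, in which these genes stood above replicates 1 and 2 by a median of 0.21. RPS29 shows the difference: its SC10 libraries measured 110, 115 and 153 CPM, against 120 to 134 in SC07 and 178 to 195 in SC01. RPL6 was lowest with all libraries, at 534 ± 46 CPM against 646 ± 9.0 and 856 ± 25, and RPL8, on chromosome 8, was highest, at 1379.9 ± 86 against 1155 ± 58 and 1137 ± 21. How reads shared with pseudogenes of these genes were counted is not given in the sources used here.

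The remaining lists held 23 to 48 tested members each, to be read against 14.9% highest and 12.7% lowest among all genes tested. Cholesterol genes had 6 of 32 highest (18.8%) and 8 lowest (25%), with MVK, mevalonate kinase, at 21.5 ± 1.5 CPM against 34.9 ± 1.3 and 59.8 ± 2.7. Interferon and antigen presentation genes had 5 of 48 highest (10.4%), among them HLA-DMB (7.06 ± 0.18 CPM, against 3.16 ± 0.54 and 1.98 ± 0.22), and 6 lowest (12.5%), among them SAMD9 (9.45 ± 1.4, against 26.7 ± 3.7 and 18.2 ± 0.98). NF-kB targets had 3 of 23 highest (13.0%) and 2 lowest (8.70%), with CXCL12, a chemokine, at 0.692 ± 0.32 CPM against 0.0459 ± 0.027 and 0.128 ± 0.045. Drug-efflux ABC transporters had 7 of 25 highest (28%) and 3 lowest (12%), with ABCA8 at 5.64 ± 0.54 CPM, against 2.05 ± 0.38 and 2.07 ± 0.090. Cancer-testis antigens had 3 of 23 highest (13.0%) and 6 lowest (26.1%), with MAGEA1 at 3.19 ± 0.79 CPM, against 8.50 ± 0.96 and 6.80 ± 0.61. Of the keratinocyte markers, KRT14 (0.0197 ± 0.017 CPM) and KRT15 (0.105 ± 0.093 CPM) were lowest in SC10.

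Among non-coding genes, LINC00479 measured 18.1, 16.9 and 18.5 CPM in SC10 and between 1.58 and 2.86 in the 6 sister libraries. LINC00504 measured 15.2, 15.6 and 15.1 CPM, against 1.62 to 3.02 in the sisters, and LINC01588 8.45, 10 and 10.7 CPM, against 2.09 to 3.91. In all 3 the SC10 libraries stood above all others, by 3.05, 2.72 and 1.68 from the nearer sister on the log2 scale. Lowest were LINC02367 (4.55 ± 0.60 CPM, against 10.2 ± 1.2 and 25.1 ± 2.4), GARS-DT (26.3 ± 1.0, against 52.8 ± 3.0 and 60.3 ± 2.3) and BLACAT1 (4.47 ± 0.098, against 15.4 ± 1.1 and 8.08 ± 0.36). Since it is not known whether reads were counted by strand, antisense transcripts cannot be told from their partners.

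Genes highest and lowest in SC10 were unevenly spread over the chromosomes. Chromosomes 10 and 11 held 9.15% of the genes tested but 23.3% of those highest and 1.62% of those lowest in SC10 alone. Chromosome 12 held 5.24% of the genes tested and 16% of those lowest. The median change on chromosome 10 was 0.27 against SC01 and 0.31 against SC07, on chromosome 11 0.25 and 0.28, and on chromosome 12 -0.34 and -0.34. The sisters were alike on these 3 chromosomes, with medians of SC07 against SC01 between -0.04 and -0.01. The shift ran along most of their length. With windows of 10 Mb that held at least 20 genes, 11 of 11 on chromosome 10 and 12 of 12 on chromosome 11 lay above 0 against both sisters. On chromosome 12, 11 of 11 lay below, but its window at 130 to 140 Mb only barely against SC07 (-0.01, and -0.18 against SC01). That window had 8% of genes highest and 8% lowest. On chromosome 11, 13.8% were highest at 30 to 40 Mb, near the 14.9% of all genes tested. Among these windows the largest median was 0.55 on chromosome 10 (10 to 20 Mb) and the lowest -0.55 on chromosome 12 (0 to 10 Mb). Without SC10 replicate 3 the medians against the mean of the sisters were 0.31, 0.29 and -0.33 on chromosomes 10, 11 and 12. Some genes named above lie there. TXNRD1, ERBB3, ATP5MC2 and FOXM1, all lowest in SC10, are on chromosome 12, as is RIMBP2, which was highest. AIFM2, ATP5F1C and SLIT1, all highest in SC10, are on chromosome 10. The part of the chromosome in these calls was not tested.

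SC10 also stood above both sisters on chromosome 8 (0.43 against SC01 and 0.19 against SC07). There 33.4% of genes were highest, against 14.9% of all genes tested. On chromosome 7 SC10 stood below both (-0.25 and -0.11), and 25.1% of genes were lowest, against 12.7% of all genes tested. On chromosome 8, 10 of 11 windows lay above 0 against both sisters, and on chromosome 7 12 of 12 lay below. All windows lay below 0 also on chromosomes 16 (8 of 8), 19 (6 of 6) and 21 (2 of 2). There the shifts were smaller, with medians against the mean of the sisters of -0.12, -0.08 and -0.07. The shares of genes lowest were 19.9%, 19.4% and 12.2%, against 12.7% of all genes tested, so chromosome 21 was not above that share. On others, such as chromosomes 5 and 6, the median lay away from 0 against 1 sister only. Outside chromosomes 10 to 12, 1989 genes were highest and 1886 lowest, so most calls lie elsewhere. DNA copy number was not measured. Neighbouring genes are not independent, so these shares are descriptions with no test.

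**Figure D4:**
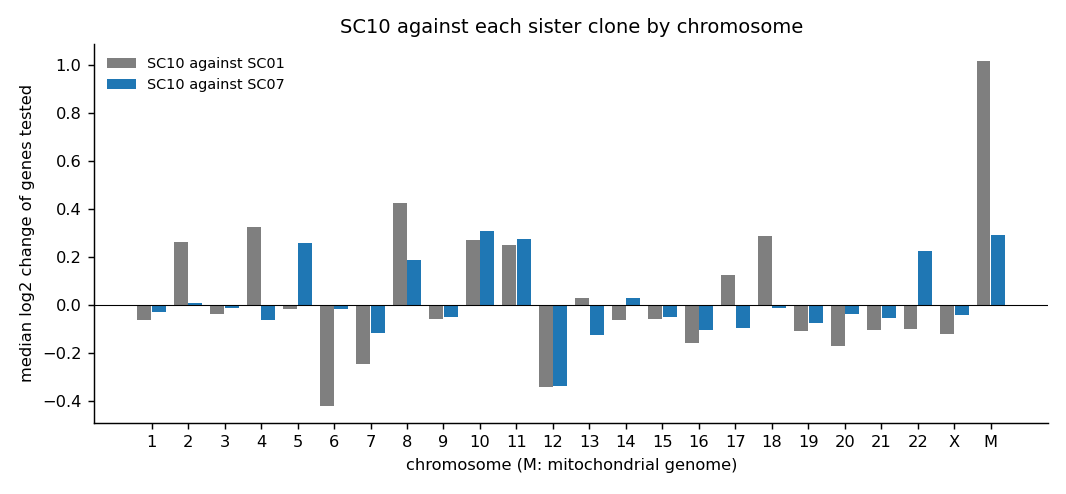
Bars give the median log2 change over the tested genes of each chromosome, SC10 against SC01 in grey and against SC07 in blue. Both bars reach at least 0.19 on chromosomes 8, 10, 11 and M and both stand at -0.34 on chromosome 12, while on others, such as 5 and 6, only 1 of the bars is far from 0.

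Around some of the genes furthest from the sisters, neighbours shared the direction. These places were chosen after their values were seen. In the region around ENO2 on chromosome 12, 13 of 22 tested genes were lowest in SC10 alone and 1, GPR162, was highest, with medians of -0.65 against SC01 and -0.49 against SC07, and ENO2 itself lay much further down. Over the first 10 Mb of the chromosome, which hold ENO2 and LINC02367, 76.4% of 72 genes were lowest and the medians were -0.60 and -0.48, so the neighbours did not stand out from that stretch. Its neighbour ATN1 measured 102 ± 11 CPM in SC10, against 169 ± 10.3 and 159.8 ± 6.5. Near LINC02367, 6 of 6 were lowest, but all except LINC02367 itself are annotated as pseudogenes. How reads shared between such copies were counted is not known. On chromosome 14, TMEM260, a mannosyltransferase of the endoplasmic reticulum, stood at 96.3 ± 2.9 CPM in SC10, against 15.4 ± 0.89 in SC07 and 18.8 ± 2.5 in SC01. The transcript AL355103.1 inside its span went with it, at 25.8 ± 0.77 CPM against 0.155 ± 0.053 and 0.817 ± 0.17, while PELI2 beside it did not pass against both sisters. On chromosome 2, 5 of 8 genes near AC017074.1 were highest, the pseudogene RPL23AP7 among them. SLC35F5, a solute carrier, was at 129 ± 2.8 CPM against 45.6 ± 2.5 and 43.8 ± 2.1. AC017074.1 itself was at 20.9 ± 0.83 CPM against 0.126 ± 0.051 and 0.191 ± 0.088.

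SC10 replicate 3 differed from its fellow libraries by the length of the genes. Over 11099 genes of at least 5 CPM in SC10, the log2 ratio of replicate 3 to replicates 1 and 2 had an SD of 0.151, against 0.105 for replicate 1 to 2, and 51 against 18 genes lay past 0.5 in either direction. Over 5 equal bins of coding genes by annotated exon bases, from shortest to longest, the median ratio was 0.10, 0.04, -0.01, -0.05 and -0.12. Against the others of its clone, the longest bin minus the shortest gave -0.21 for SC10 replicate 3, and 0.08 and 0.14 for replicates 1 and 2. Replicate 3 is part of the reference for these last values. Directly, replicate 1 to 2 had a median of 0.03 in the shortest bin and -0.01 in the longest. The 6 sister libraries lay between -0.06 and 0.06, negative only in replicate 3 of SC01 (-0.06) and of SC07 (-0.05). The coding genes under -0.5 in replicate 3 numbered 41, with a median of 13296 exon bases, against 5370.5 for all 10466 coding genes. Among the genes lowest in replicate 3 were the long genes ALMS1, of the centrosome (31.4, 32.5 and 18.9 CPM), SYNE2, of the nuclear envelope (89.9, 94.1 and 58.2 CPM), and NFAT5, a factor of the salt response (55.2, 55.9 and 33.3 CPM). REL, an NF-kB subunit, dropped from 10.5 and 9.67 to 4.58 CPM. Among those highest were the short genes COPS9, of the signalosome (22.2, 22.7 and 30.8 CPM), and DYNLT1, a dynein light chain (9.97, 9.85 and 13.9 CPM).

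That library bears on the calls of such genes. Without it, NCR3LG1, a ligand of natural killer cells, was highest in SC10 alone (38.2 and 37.5 CPM in replicates 1 and 2, against 30.4 to 31.8 in SC07), and with it (22.4 CPM) it was not (largest adjusted p = 0.000177 and 0.781, edgeR). ALMS1 was not called against the mean of the sisters with all libraries (-0.07, adjusted p = 0.754, edgeR) and was higher by 0.15 without replicate 3 (adjusted p = 0.0194). Of the genes far from both sisters, NOX5 was at -0.13 in replicate 3 against replicates 1 and 2, EPHA7 at -0.09 and ENO2 at 0.07, while ITGB3 was at -0.25, SCML4 at -0.27 and PLXNC1 at -0.31.

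**Figure D5:**
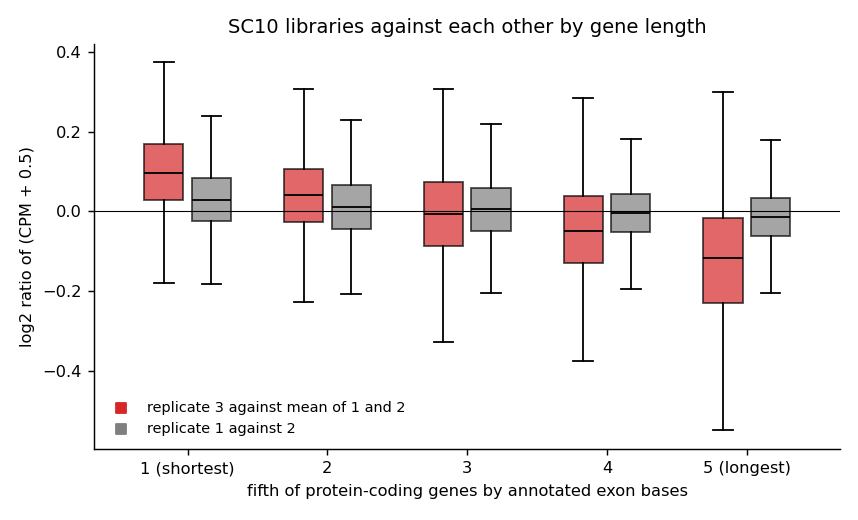
Boxes give the log2 ratio of SC10 replicate 3 to the mean of replicates 1 and 2 (red) and of replicate 1 to 2 (grey) over 5 bins of coding genes by exon bases (horizontal axis), with the median as a line, the quartiles as the box and whiskers to the furthest gene within 1.5 times the box, outliers not drawn. The red medians descend from 0.10 in the shortest to -0.12 in the longest bin, and the grey ones stay within 0.03 of 0.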

How the data were processed

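RNA-seq of untreated cells was deposited as 1 table of raw read counts per gene, 60675 genes in 9 libraries. The authors aligned reads with HISAT2 and counted them with featureCounts on GRCh38, per the submitters' processing notes. Tool versions, strandedness, the annotation and how multi-mapping reads were counted were not given in the sources used here. Gene names, positions and exon overlap came from GENCODE 29, which named 57055 of the 60675 identifiers, and promoters from RefSeq (GRCh38.p14).

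From the deposited counts, 18009 genes passed edgeR's filterByExpr, holding 99.91% to 99.93% of the counts. edgeR 4.0.16 (R 4.3.3) fitted all 9 libraries with 1 mean per clone, TMM scaling and a robust quasi-likelihood fit. SC10 was tested against the mean of its sisters and against each sister, with Benjamini-Hochberg adjustment over all 18009 genes at 0.05. A gene was highest or lowest in SC10 alone when all 3 tests passed in 1 direction, and its distance is the log2 change against the nearer sister. Standard errors come from the fit (log2 change over the root of F). Lists are described by counts and medians, with no set test. The steps were tested on simulated data.

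Genes were named by rule: among genes highest or lowest in SC10 alone with no overlap of libraries and at least 5 CPM in SC10 (for lowest, in each sister), the 15 coding and 3 non-coding genes with the largest distance in each direction (clone-based names such as AC017074.1 and pseudogenes left out), then up to 4 members of each list by distance, the 8 coding genes in each direction furthest off in SC10 replicate 3, and a fixed set of genes (MITF, NGFR, AXL, EGFR, BRAF, NOX5, PPARGC1A, KDM5B and SOX10). The comparison, members and lists were chosen with earlier results of these data known. Alternatives covered scaling, filters, DESeq2 1.42.0, limma-voom (limma 3.58.1), a minimum change, the model, a replicate block and leaving out each library. Exact intervals and floors of 3 counts cover counting error only, and at totals of 30224066 or more counts per library they matter for genes under about 1 CPM.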

Additional observations from a re-analysis of the deposited data

How the results depend on the processing

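Leaving out 1 library at a time gave 5285 to 5648 genes higher and 4385 to 4780 lower than the mean of the sisters, 2505 to 2717 highest and 2005 to 2255 lowest in SC10 alone, and 495 to 548 and 202 to 234 at 2-fold or more. DESeq2 gave 2533 highest and 2138 lowest, and limma-voom 2719 and 2238. A tested minimum change of 1.5-fold left 1526 higher and 667 lower, 502 highest and 179 lowest, and 131 lowest at 2-fold or more. With the sisters as 1 group of 6, 1895 were higher and 1776 lower, since the spread then includes the difference between sisters. A filter of at least 1 CPM in 3 libraries left 321 highest and 128 lowest at 2-fold or more, with fewer genes tested. Scaled by totals alone, the median of all genes was -0.12 against SC01 and -0.06 against the mean of the sisters, and 2376 genes were highest and 2659 lowest, so that the larger of these counts changed sides. ALMS1, not called against the mean of the sisters with all libraries (-0.07), was higher without SC10 replicate 3 (0.15, edgeR adjusted p = 0.0194), and ran from -0.19 to 0.15 over the removals of 1 library.

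Replicate numbers are shared across clones in the labels. The deviations of 9 same-numbered pairs correlated between -0.02 and 0.04, and 5 of 9 libraries matched their own number best. Correlations this weak cannot decide whether the numbers pair the libraries. By gene length, the longest bin minus the shortest was negative in replicate 3 of each clone and in no other library. A fit with the replicate block gave 5655 higher and 5011 lower, 2708 highest and 2369 lowest in SC10 alone, and 500 and 221 at 2-fold or more. Of 159 named genes tested, 79 kept their call under every alternative, and 73 others lost it against the minimum change of 1.5-fold. Depth limits genes near 3 counts, 0.0773 to 0.0948 CPM.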
